A study of Mus musculus with 6 samples.

Results

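The peaks described here lie in 1.6 Mb of mouse chromosome 19 (mm9, 44.7 to 46.3 Mb), a stretch that holds, in this order, the developmental genes Pax2, Tlx1, Lbx1, Fgf8 and Pitx3. Its members are all called peaks that touch this stretch, and the stretch was chosen because earlier results of these same peak lists showed it to be dense in them, so the number, width and overlap of its peaks chose it and are given as a description with no test. There were 34 EZH2 peaks and 11 H3K27me3 peaks, 45 of the 4675 peaks of both lists. The cells were mouse embryonic fibroblasts, cultured connective-tissue cells, and every group shared the loss of endogenous EED in a line grown from 1 Cre-treated clone of EED-floxed cells. A lentivirus then gave back EED in its wild-type, R302S or Y365A form, and each of the 3 lines was profiled by chromatin immunoprecipitation and sequencing with 2 antibodies, against EZH2 and against trimethylated lysine 27 of histone H3 (H3K27me3), giving 6 groups of 1 library. The 2 lists used here give the EZH2 peaks of cells with wild-type EED and the H3K27me3 peaks of cells with EED R302S, and the other 4 samples were not analysed here. Antibody and EED form differ together between the lists and cannot be told apart, no library has a replicate, and no p-value is given. The lists hold peak positions only, so read depth and peak height are unknown, the labelled cell type could not be checked against markers, and a site without a peak may still have been weakly occupied.

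Polycomb repressive complex 2 keeps developmental genes silent in cells that do not use them. Its subunit EZH2 places methyl groups on lysine 27 of histone H3, and its subunit EED binds the finished trimethyl mark, which stimulates the enzyme and helps the mark to spread outward from the places where the complex first settles. EED R302S and EED Y365A are substitutions that impair this binding, and the series used them to ask where the mark forms when the stimulation is impaired. In mammals the complex settles preferentially on unmethylated DNA rich in CpG dinucleotides, as is found at the starts of many developmental regulators.

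The 5 genes act in different tissues of the embryo. Pax2 encodes a paired-domain transcription factor of the kidney, the optic stalk and the border of midbrain and hindbrain. Tlx1 encodes a homeobox factor needed for the spleen, and Lbx1 a homeobox factor of migrating muscle precursors and of dorsal spinal cord neurons. Fgf8 encodes a secreted growth factor that signals to its receptors from the limb ridge and from the border of midbrain and hindbrain. Pitx3 encodes a homeobox factor of the lens and of midbrain dopamine neurons. In the RefSeq gene table (assembly GRCm38.p6), used for names and order only, the 5 genes stood in the stated order. Between the first and the last of them lay 21 other protein-coding genes. Of these, 8 lay between Pax2 and Tlx1 (among them Sema4g, Lzts2 and Kazald1), 0 between Tlx1 and Lbx1, 4 between Lbx1 and Fgf8 (Btrc, Poll, Dpcd and Fbxw4) and 9 between Fgf8 and Pitx3 (among them Ldb1, Nolc1 and Elovl3). No mm9 annotation was used, so no peak was assigned to a gene, and the peaks are named below by their number from the Pax2 side.

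The CpG content of the genes' starts is shown because it is a property of these genes that the choice of the region did not use. RefSeq promoter windows (GRCm38.p6, from 250 bases before to 50 after a start) were matched for Pax2 (3 starts), Tlx1 and Pitx3, while Lbx1 and Fgf8 were not matched. The 250 bases before the start are printed 5′ to 3′ on the gene's strand, with each CG in capitals. Pax2 start 1 (chr19:44746351-44746600, + strand) and start 3 (chr19:44756656-44756905, + strand) are given because they hold the fewest and the most CG of the 3, beside Tlx1 (chr19:45150465-45150714, + strand) and Pitx3 (chr19:46148326-46148575, - strand). These are GRCm38 positions and cannot be set against the mm9 positions of the peaks.
Pax2, start 1: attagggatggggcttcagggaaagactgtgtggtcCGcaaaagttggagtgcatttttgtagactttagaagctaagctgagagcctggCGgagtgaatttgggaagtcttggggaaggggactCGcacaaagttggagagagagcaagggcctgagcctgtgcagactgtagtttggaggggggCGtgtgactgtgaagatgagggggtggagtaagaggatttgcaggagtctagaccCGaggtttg
Pax2, start 3: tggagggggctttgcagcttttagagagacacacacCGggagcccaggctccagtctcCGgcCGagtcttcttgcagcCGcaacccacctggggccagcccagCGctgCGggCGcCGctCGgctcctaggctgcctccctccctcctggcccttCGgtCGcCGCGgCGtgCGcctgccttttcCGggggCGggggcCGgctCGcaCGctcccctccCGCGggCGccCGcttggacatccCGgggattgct
Tlx1: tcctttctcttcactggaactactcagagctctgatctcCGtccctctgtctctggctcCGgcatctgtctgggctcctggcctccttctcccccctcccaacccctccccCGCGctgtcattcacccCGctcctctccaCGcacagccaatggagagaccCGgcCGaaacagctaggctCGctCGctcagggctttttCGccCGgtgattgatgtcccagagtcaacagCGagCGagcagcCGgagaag
Pitx3: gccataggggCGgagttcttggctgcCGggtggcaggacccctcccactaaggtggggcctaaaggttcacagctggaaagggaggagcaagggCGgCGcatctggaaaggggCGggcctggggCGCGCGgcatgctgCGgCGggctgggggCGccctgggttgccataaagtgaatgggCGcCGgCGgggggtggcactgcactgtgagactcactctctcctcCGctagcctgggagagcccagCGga
The runs printed hold 5, 25, 15 and 16 CG in this order. CG reads the same on both strands and cannot overlap itself.

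Over the whole window of 300 bases, Pax2 start 3 had 30 CG, a count reached by 11.7% of the 32851 mouse windows in the table. Pax2 start 2 had 23 CG (21.5% of windows had as many), Pitx3 had 20 (26.5%) and Tlx1 had 16 (33.0%). Pax2 start 1, with 7 CG, was at the median of all windows, which was 7 with quartiles of 3 and 20. So 2 of the 5 windows lay above the upper quartile and 1 was equal to it. Of the 22 windows of protein-coding neighbours, from 16 genes, 10 lay above the upper quartile, and their counts ran from 2 (Pdzd7) to 41 (Ldb1) with a median of 18.5. Starts above the upper quartile were thus seen for 1 of the 5 developmental genes, Pax2, and for some of the neighbours. What part CpG content had in the peak pattern was not tested.

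**Figure D1:**
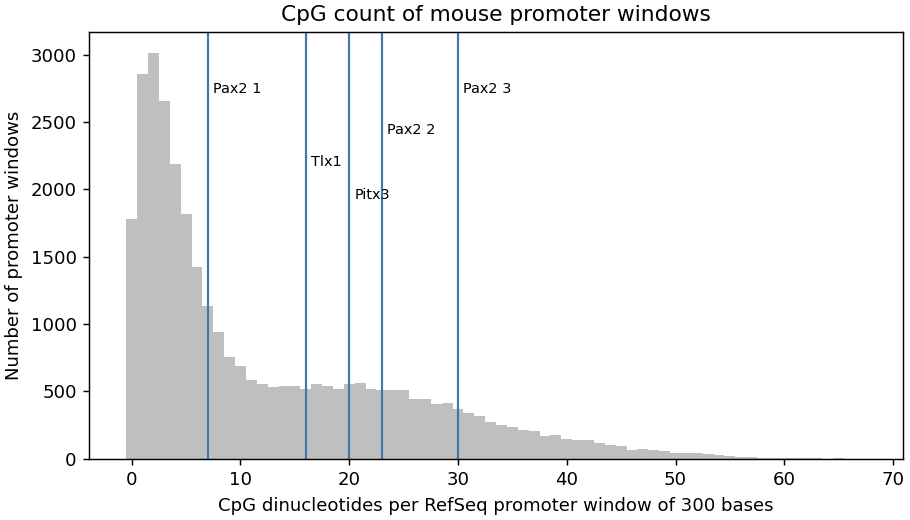
Number of CpG dinucleotides (x axis) in 300-base RefSeq promoter windows of the mouse, with the number of windows on the y axis (grey bars) and vertical lines at the 5 windows of Pax2, Tlx1 and Pitx3. Pax2 start 1 sits at 7, the median, and the other 4 windows at 16 to 30.

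The 34 EZH2 peaks of the wild-type rescue and the 11 H3K27me3 peaks of the R302S rescue fell into 7 domains, here meaning peaks of either list joined across gaps of up to 50 kb. From first to last peak they spanned 1511.2 kb (44713601 to 46224800). The gaps between consecutive domains were 115, 95.4, 55.0, 206, 140 and 377 kb from the Pax2 side to the Pitx3 side. Domains 1, 3 and 4 were the large ones, with 90.6, 43.8 and 56.4 kb of EZH2 peaks. Domains 5 and 6 held 5.6 and 10.4 kb, and domain 7 held 18.0 kb. H3K27me3 was called in 5 of the 7 domains and was not called in domain 2, a single narrow peak, nor in domain 7.

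**Figure D2:**
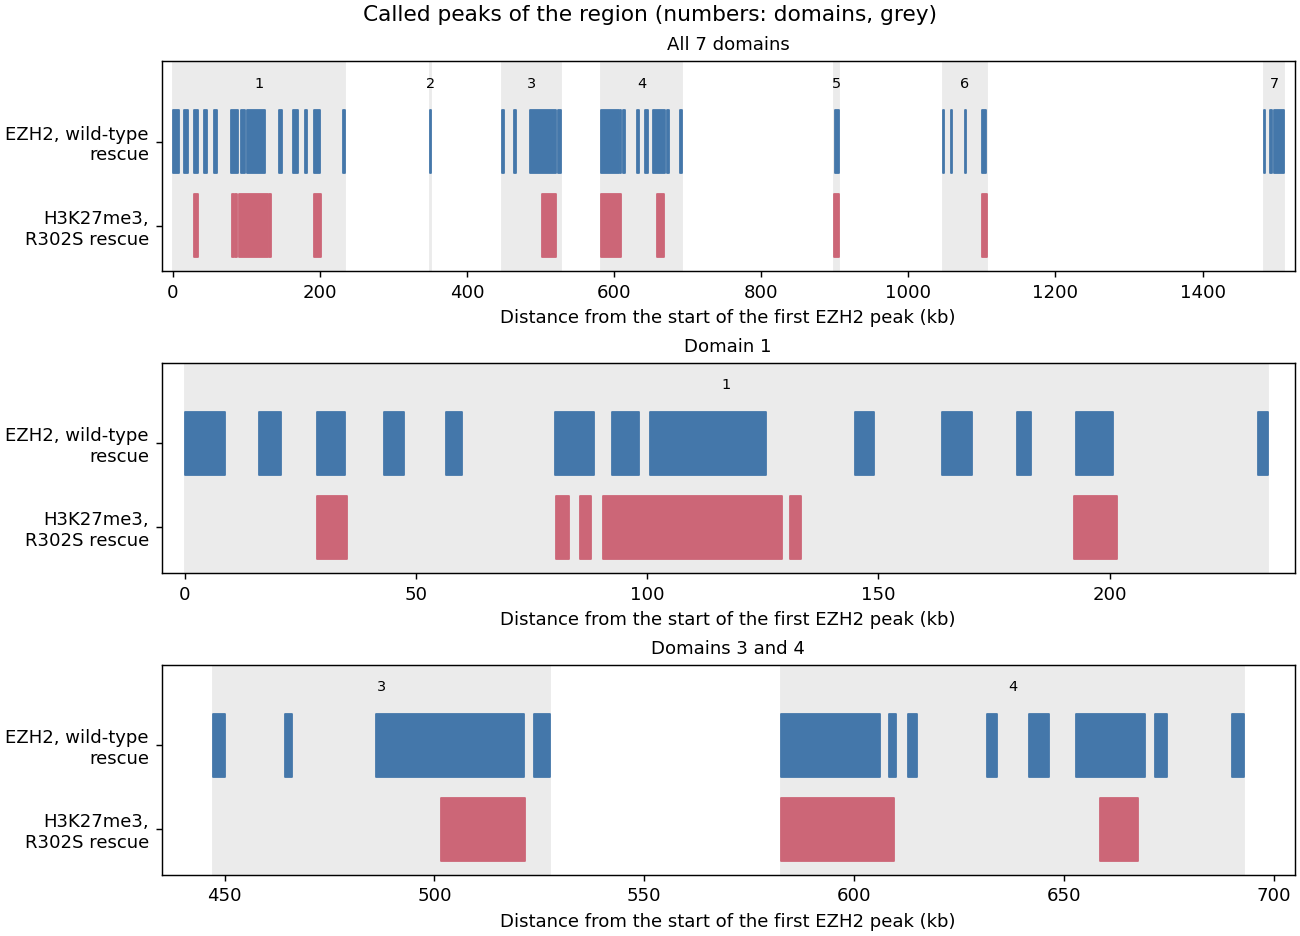
Called peaks by distance in kb from the start of the first EZH2 peak, for the whole region and enlarged for domain 1 and for domains 3 and 4. Blue bars are EZH2 peaks (wild-type rescue), red bars H3K27me3 peaks (R302S rescue) and grey areas the 7 domains. Red bars sit under the widest blue bars of domains 1, 3 and 4, and domains 2 and 7 have none.

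Both lists were concentrated here relative to the rest of the chromosome. The region is 2.80% of the 57.1 Mb between the first and last peak of chromosome 19, and it held 19.1% of the chromosome's 178 EZH2 peaks and 23.9% of its 46 H3K27me3 peaks. By length the shares were 30.4% for EZH2 and 39.2% for H3K27me3. EZH2 peaks numbered 21.2 per Mb, against 2.59 per Mb on the rest of the chromosome, and H3K27me3 peaks 6.88 against 0.631 per Mb. EZH2 peaks covered 14.2% of the region (227 kb) and 0.937% of the rest, and H3K27me3 peaks covered 8.26% (132 kb) and 0.370%. The median gap between neighbouring EZH2 peaks was 9.8 kb in the region and 99.4 kb on the rest. The counts depend on the edges chosen: without the outer 200 kb on each side, 20 EZH2 and 6 H3K27me3 peaks were left.

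When chromosome 19 was divided into 36 windows of the region's length, the region had the most of both lists. The next window had 99.0 kb of EZH2 peaks and 34.4 kb of H3K27me3 peaks, and the median of the other windows was 7.8 kb and 0.400 kb. Over all chromosomes, no other window of this grid had more EZH2 length: the region's 227 kb ranked 1 of 897 windows with an EZH2 peak, ahead of 163 kb on chromosome 11. By the number of EZH2 peaks it ranked 2, behind a window of chromosome 15 with 36. By H3K27me3 length it ranked 2 of 626 windows with such a peak, behind 142 kb on chromosome 5. By the number of H3K27me3 peaks, 11, it ranked 3, and the highest window, on chromosome 5, had 46. The grid began at the region's own edge, so a peak cluster elsewhere could be split between windows while this one was not.

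**Figure D3:**
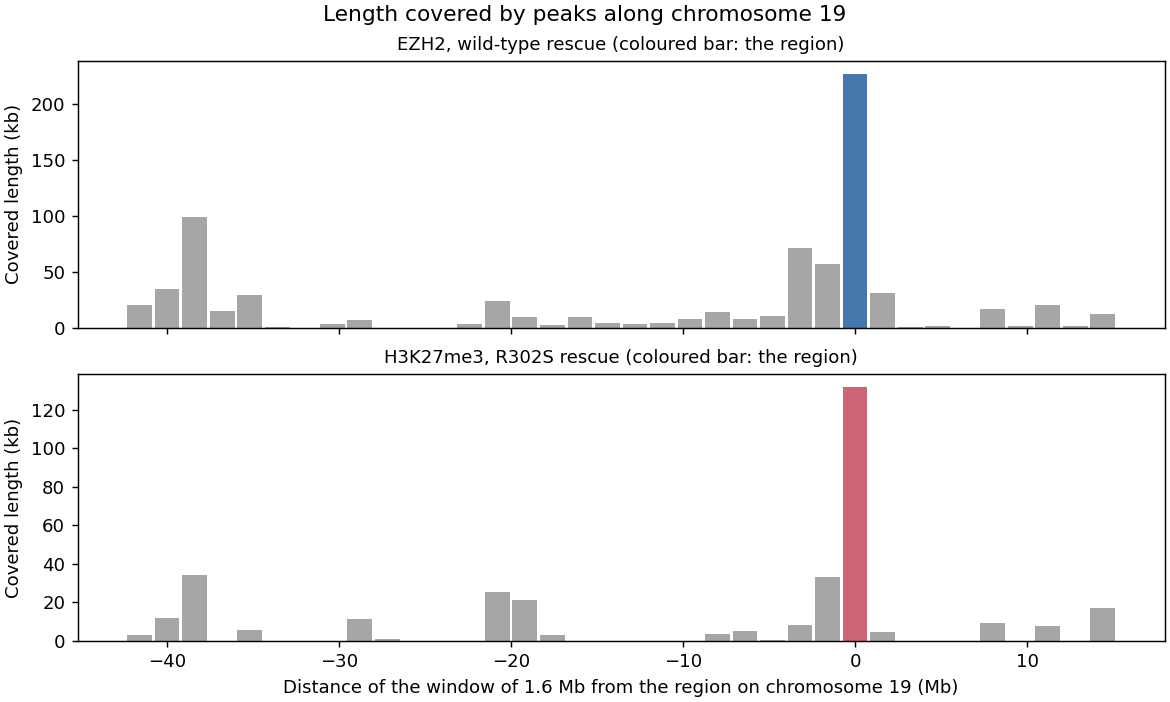
Length covered by peaks (kb, y axis) in windows of 1.6 Mb along chromosome 19, by distance from the region (Mb, x axis), for EZH2 in the wild-type rescue (top) and H3K27me3 in the R302S rescue (bottom). The coloured bars are the region, at 227 and 132 kb, and the highest grey bars reach 99.0 and 34.4 kb.

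In the region, 11 of the 34 EZH2 peaks shared at least 1 bp with an H3K27me3 peak, or 32.4% (95% Wilson interval 19.1% to 49.2%, covering counting error within these lists only). The background was 21.5% of the 144 EZH2 peaks on the rest of chromosome 19 (interval 15.6% to 28.9%) and 27.7% of all 3449. The intervals overlap, and since the region was chosen from these peaks nothing is read from the difference. In the other direction, 10 of the 11 H3K27me3 peaks met an EZH2 peak, or 90.9% (62.3% to 98.4%), beside 88.6% of 35 on the rest of the chromosome and 77.3% of the whole list. By length, 115 kb were common to both lists. That was 50.5% of the region's EZH2 length, against 29.5% on the rest of the chromosome and 33.6% over the whole list. It was 86.8% of the region's H3K27me3 length, against 74.8% and 68.0%. Nothing is read from these differences either, as the region was chosen from these peaks. Without the widest peak of each list, the shares of length were 33.3% (EZH2) and 68.5% (H3K27me3). The dropped peaks did not meet each other, and the peaks they had met stayed in the count as unshared. Part of the fall was thus built in, so it does not show how far the shares rest on the widest peaks.

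The median EZH2 width was 3900 bp in the region and 2600 bp on the rest of the chromosome, but both were 2800 bp when the region was narrowed by 200 kb on each side, so this difference depended on the edges. The median H3K27me3 width was 7200 and 5000 bp. EZH2 peaks that met H3K27me3 tended to be the wide ones, but an overlap of 1 bp is easier for a wide peak to reach. Those 11 peaks had a median width of 8000 bp (1600 to 35400 bp), and the 23 without H3K27me3 had a median of 2800 bp (1000 to 14600 bp), so the ranges overlapped. On the rest of chromosome 19 the medians were 6200 and 2200 bp. Of the region's EZH2 peaks of 4400 bp or more, 10 of 15 met H3K27me3 (66.7%, 41.7% to 84.8%), beside 20 of 36 on the rest of the chromosome (55.6%, 39.6% to 70.5%) and 57.9% of such peaks genome-wide (54.5% to 61.2%), so the region's share was near the background. Of those of 2600 to 4200 bp, 0 of 9 did (upper bound 29.9%), beside 6 of 41 elsewhere on the chromosome (14.6%, 6.88% to 28.4%) and 34.6% genome-wide (31.5% to 37.8%). Of those of 1600 to 2400 bp, 1 of 7 did (14.3%), near the 12.1% on the rest of the chromosome and the 14.5% genome-wide. Of those narrower still, 0 of 3 did, where the shares were 2.94% and 5.79%. Peaks of 4400 bp or more were 15 of the region's 34 EZH2 peaks and 36 of the 144 on the rest of the chromosome.

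**Figure D4:**
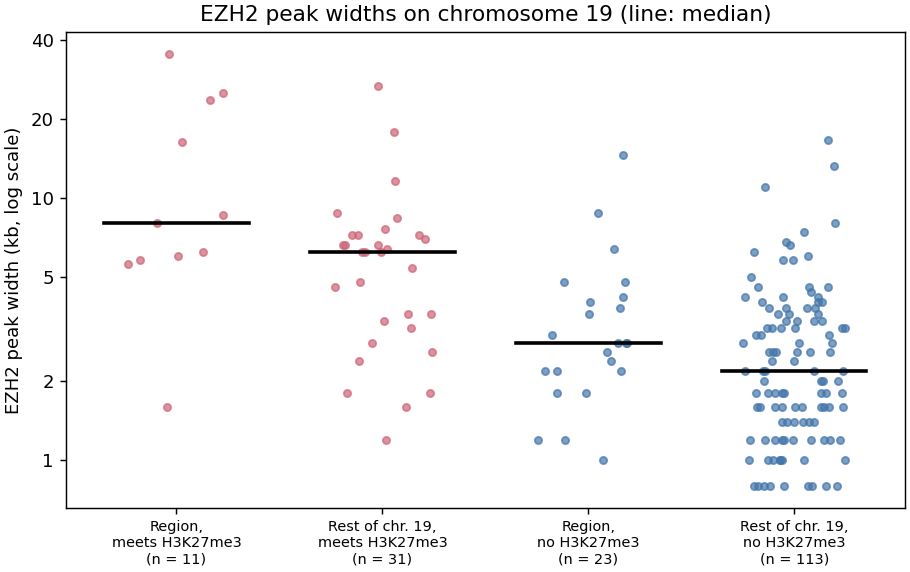
EZH2 peak width (kb, log scale) of each peak of chromosome 19, in the region and on the rest of the chromosome, by whether the peak met an H3K27me3 peak of the R302S rescue; points are peaks and lines are medians. In the region the medians were 8000 bp with H3K27me3 and 2800 bp without.

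Domain 1, at 44713601 to 44947800, held 13 EZH2 peaks and 6 H3K27me3 peaks in 234 kb. It was a row of separate EZH2 peaks around a wide centre, peak 8 (44814201 to 44839400), which at 25.2 kb ranked 7 in width among all 3449. Peak 7 (44806001 to 44811800, 5.8 kb) lay 2.4 kb before it. H3K27me3 peak 4 (44804001 to 44842800) ran over both without a break. It was 38.8 kb wide and ranked 2 in the H3K27me3 list. It reached 2.0 kb beyond EZH2 peak 7 on one side and 3.4 kb beyond peak 8 on the other, and with the gap of 2.4 kb between them 7.8 kb of it lay outside EZH2 peaks.

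Next to it lay 3 narrow H3K27me3 peaks. Peaks 2 (44794001 to 44796800, 2.8 kb) and 3 (44799001 to 44801400, 2.4 kb) were both wholly inside EZH2 peak 6 (44793601 to 44802200, 8.6 kb), of which they covered 60.5%. Peak 5 (44844401 to 44846800, 2.4 kb) began 1.6 kb after peak 4 ended. It was the only H3K27me3 peak of the region with no EZH2 peak, and the nearest EZH2 peak was 5.0 kb away. So around EZH2 peak 8 the mark was called in a string of 4 peaks with gaps of 2.2, 2.6 and 1.6 kb.

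The domain's other H3K27me3 peaks stood alone and matched single EZH2 peaks closely. H3K27me3 peak 1 (44742201 to 44748800, 6.6 kb) began at the same base as EZH2 peak 3 (44742201 to 44748200, 6.0 kb) and ended 600 bp beyond it. H3K27me3 peak 6 (44906001 to 44915200, 9.2 kb) covered all of EZH2 peak 12 (44906401 to 44914400, 8.0 kb) and passed it by 400 bp on one side and 800 bp on the other. Each stood 45.2 kb or more from the central string.

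Of the 13 EZH2 peaks of domain 1, 8 had no H3K27me3. The widest was peak 1 (44713601 to 44722400, 8.8 kb), followed by peak 10 (44877401 to 44883800, 6.4 kb). Peak 1 was thus wider than EZH2 peaks 3, 6, 7 and 12, which met H3K27me3 in the same domain. Before the centre, peak 2 (44729601 to 44734400, 4.8 kb), peak 4 (44756801 to 44761000, 4.2 kb) and peak 5 (44770001 to 44773600, 3.6 kb) lay 7.8, 8.0 and 20.4 kb from the nearest H3K27me3 peak. After it, peak 9 (44858601 to 44862600, 4.0 kb), peak 11 (44893601 to 44896600, 3.0 kb) and peak 13 (44945601 to 44947800, 2.2 kb) lay 11.8, 9.4 and 30.4 kb from one. In order along this domain, peaks 1 and 2 lacked the called mark, peak 3 had it, and peaks 4 and 5 lacked it. Peaks 6 to 8 had it, peaks 9 to 11 lacked it, peak 12 had it and peak 13 lacked it. Whether marked sites lay together more than a random order would give was not tested.

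Domain 2 was EZH2 peak 14 alone (45062801 to 45065400, 2.6 kb). The nearest H3K27me3 peak was 148 kb away.

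Domain 3, at 45160801 to 45241200, had the widest EZH2 peak of the chromosome, peak 17 (45199601 to 45235000). At 35.4 kb it ranked 2 of the whole list. H3K27me3 was called over 1 side of it only: H3K27me3 peak 7 (45215201 to 45235200, 20000 bp) left the first 15.6 kb without a call and ended 200 bp past the other end, covering 55.9% of the EZH2 peak. Peak 18 (45237401 to 45241200, 3.8 kb) followed after a gap of 2.4 kb and had no H3K27me3, although it lay 2.2 kb from that of peak 17. Peaks 15 (45160801 to 45163600, 2.8 kb) and 16 (45178001 to 45179800, 1.8 kb) lay 51.6 and 35.4 kb from it, and neither met the mark.

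Domain 4, at 45296201 to 45406600, had 8 EZH2 peaks and 2 H3K27me3 peaks, and its wide peaks bore the mark in different ways. EZH2 peak 19 (45296201 to 45319800, 23.6 kb) was covered wholly by H3K27me3 peak 8 (45296201 to 45323200, 27000 bp), which began at the same base. That H3K27me3 peak went on for 3.4 kb, over the gap of 2.2 kb and over 1200 bp of EZH2 peak 20 (45322001 to 45323600, 1600 bp), which was the narrowest EZH2 peak of the region to meet the mark. EZH2 peak 24 (45366601 to 45383000, 16.4 kb) held H3K27me3 in its middle. There H3K27me3 peak 9 (45372201 to 45381400, 9.2 kb) covered 56.1% of it and stopped 5.6 kb short of one end and 1.6 kb short of the other.

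The remaining 5 EZH2 peaks of domain 4 had no H3K27me3. Peak 21 (45326401 to 45328600, 2.2 kb) and peak 25 (45385401 to 45388200, 2.8 kb) lay 3.2 and 4.0 kb from an H3K27me3 peak. Peak 22 (45345401 to 45347600, 2.2 kb), peak 23 (45355201 to 45360000, 4.8 kb) and peak 26 (45403801 to 45406600, 2.8 kb) lay 22.2, 12.2 and 22.4 kb from one. Together with peak 18 of domain 3, peaks 21 and 25 were the 3 EZH2 peaks of the region that had no H3K27me3 but lay within 5 kb of it. Such near peaks were not counted outside the region, so nothing is read from their number.

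Domain 5 was a single site. EZH2 peak 27 (45614401 to 45620000, 5.6 kb) and H3K27me3 peak 10 (45612401 to 45619000, 6.6 kb) shared 4.6 kb. The H3K27me3 peak began 2.0 kb before the EZH2 peak and ended 1.0 kb before its end, so that the 2 peaks were shifted against each other.

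Domain 6, at 45760201 to 45820400, held 4 EZH2 peaks, and H3K27me3 met the widest of them. EZH2 peak 31 (45813401 to 45819600, 6.2 kb) lay wholly inside H3K27me3 peak 11 (45813201 to 45820400, 7.2 kb), which passed it by 200 and 800 bp. The other peaks were narrow: peak 28 (45760201 to 45762000) was 1.8 kb wide, and peaks 29 (45771201 to 45772400) and 30 (45791001 to 45792200) were 1.2 kb wide. They lay 51.2, 40.8 and 21.0 kb from the mark.

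Domain 7, at 46197001 to 46224800 on the Pitx3 side, had a wide EZH2 peak and no called H3K27me3. Its EZH2 peak 34 (46210201 to 46224800) was 14.6 kb wide. Among the 2492 EZH2 peaks of the genome without H3K27me3 it ranked 9 in width, and among the 136 of chromosome 19 without H3K27me3, members included, it ranked 2. Peak 32 (46197001 to 46198000, 1.0 kb) and peak 33 (46205401 to 46207800, 2.4 kb) preceded it. The nearest H3K27me3 peak was 377 kb from this domain, in domain 6. On the far side the next one lay beyond the region.

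**Figure D5:**
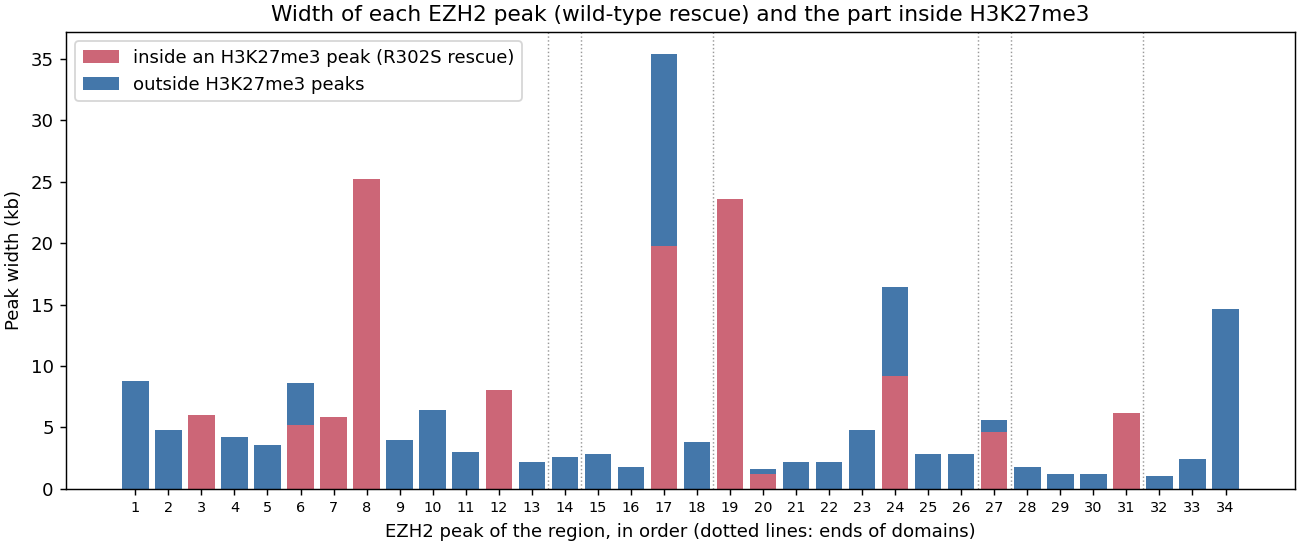
Width (kb, y axis) of the 34 EZH2 peaks of the wild-type rescue in order from the Pax2 side (x axis), split into the part inside (red) and outside (blue) H3K27me3 peaks of the R302S rescue; dotted lines separate the 7 domains. Peaks 8 and 19 are red throughout, peaks 17 and 24 in part, and peaks 1 and 34 are blue throughout.

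Compared across domains, H3K27me3 covered 55.4% of the EZH2 length in domain 1, 45.2% in domain 3, 60.3% in domain 4, 82.1% in domain 5 and 59.6% in domain 6. Domains 2 and 7 had 0%. Of the 11 EZH2 peaks that met the mark, 6 were covered wholly and 5 in part. Of the 11 H3K27me3 peaks, 3 lay wholly inside an EZH2 peak. No matching counts were made outside the region, so whether full coverage is more usual here is unknown. The H3K27me3 length outside EZH2 peaks was 17.4 kb in the whole region, of which 7.8 kb belonged to H3K27me3 peak 4. EZH2 peaks without the mark, or the unmarked parts of others, made up 113 kb. Length was unevenly spread: the widest 3 peaks made up 37.0% of the EZH2 length and 64.9% of the H3K27me3 length.

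When all peaks of either list were joined across gaps of up to 50 kb over the whole genome, 2286 domains resulted. Domain 1 then took in 3 more EZH2 peaks from outside the region's edge and had 102 kb of EZH2 peaks, rank 2 of all, and 62.2 kb of H3K27me3 peaks, rank 3. Domain 4 ranked 15 by EZH2 and 10 by H3K27me3 length, and domain 3 ranked 26 and 35. Domain 7, with no H3K27me3, ranked 106 by EZH2 length.

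At the edges of the region, the first member began 29.2 kb after the last EZH2 peak outside it (44680201 to 44684400, 4.2 kb, without H3K27me3). The nearest H3K27me3 peak before the region (44583001 to 44590600, 7.6 kb) shared 7000 bp with EZH2 and lay 152 kb from H3K27me3 peak 1. After the last member the next EZH2 peak (46390601 to 46393800, 3.2 kb, without H3K27me3) followed at 166 kb. The next H3K27me3 peak (47251801 to 47256400, 4.6 kb) lay 1431 kb after H3K27me3 peak 11. The Pax2-side edge therefore cut through a run of EZH2 peaks, whereas the Pitx3-side edge lay in a stretch without peaks of either list.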

How the data were processed

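Both peak lists were used as deposited by the authors. Reads were handled with Bowtie 1.0.0 and deepTools on build mm9, per the submitters' processing notes. How peaks were called, with what threshold and control, is not given in the sources used here. The deposited values are start and end positions in bins of 200 bp with no score, so depth and precision per peak are unknown. Ends lie 1 bp short of a bin boundary and were read as the last base of a bin counted from 0, and positions are printed counted from 1. The smallest gap and width were 2200 and 800 bp in the EZH2 list and 1200 and 400 bp in the H3K27me3 list, so the widths of the 2 lists are not strictly comparable.

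Members were all peaks touching the region, and every member is named. The region, its members and the gene list were chosen with earlier results of these data known. Overlap meant at least 1 shared bp. Counts were made with numpy 2.4.6 and pandas 2.3.3 (Python 3.11.15), tested on simulated peaks and checked against bedtools 2.31.1. Wilson intervals (95%) came from scipy 1.17.1 and cover counting error only, and neighbouring peaks are not independent. Chromosome 19 was measured from its first to its last peak. Sequences and gene names are RefSeq's (GRCm38.p6). Figures were drawn with matplotlib 3.10.9. Alternatives covered the overlap criterion, joined peaks, the list limits, the wider 50% of each list, the region's edges and the joining distance.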

Additional observations from a re-analysis of the deposited data

How the results depend on the processing

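Of 51 values under alternatives, 28 stayed within the limits set for the value reported (1.5 times a count, the Wilson interval of a share, the same median). For shares of length that interval counted bins of 200 bp, which are not independent within a peak. It was therefore too narrow, and which of those shares stayed within it depends on that choice. With the region narrowed by 200 kb on each side, which drops domain 7 and most of domain 1, 20 EZH2 and 6 H3K27me3 peaks were left, 56.3% of EZH2 length lay inside H3K27me3, 91.7% of H3K27me3 length inside EZH2, and median widths were 2800 and 9200 bp (2800 and 4900 bp on the rest of the chromosome). Widened by 200 kb, the region's medians were 3700 and 7400 bp and the H3K27me3 median of the rest 4900 bp. All H3K27me3 peaks met EZH2 (100%) with a distance of 5 kb allowed, with peaks within 5 kb joined, at the limits of the EZH2 list, in the wider 50% and in the narrowed region, because peak 5 then counts, is joined or is left out. Joining gave medians of 4200 and 9200 bp (EZH2 on the rest 3200 bp) and 91.2% of H3K27me3 length inside EZH2, and the limits of the EZH2 list gave an H3K27me3 median of 8200 bp. Without EZH2 peak 17 and H3K27me3 peak 4, the shares of length were 33.3% (EZH2) and 68.5% (H3K27me3). EZH2 peaks 7 and 8 and H3K27me3 peak 7, which had met the dropped peaks, stayed in the count. Part of the fall was therefore built in. The 7 domains became 9 at 20 kb and 5 at 100 kb. No filter on peak score could be made, and the wider 50% took its place. No paired analysis was possible because there was a single library per group, and for the same reason no replicate could be dropped. With depth unknown, weaker sites cannot be assessed.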
